A study of Bos taurus with 12 samples.

Results

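De novo lipogenesis builds fatty acids from acetyl-CoA, and desaturation puts double bonds into them. The genes described here are FASN, SCD, ACACA, ACACB, ACLY, ELOVL5, ELOVL6, FADS1, FADS2 and SREBF1, chosen by name for their known part in these steps. Each of the 10 had a row of its own in the deposited mRNA table, which holds 33714 rows, and each was among the 15402 rows with a mean of at least 0.1 FPKM over all libraries that were tested. FPKM are fragments scaled by the length of the transcript and the depth of the library, so that levels can be set beside each other between genes per unit of length.

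In this pathway ACLY releases acetyl-CoA from citrate in the cytosol, the acetyl-CoA carboxylases ACACA and ACACB make malonyl-CoA, and fatty acid synthase (FASN) joins these units into palmitate. ELOVL6 and ELOVL5 lengthen fatty acids, SCD makes monounsaturated fatty acids, and FADS2 and FADS1 act in turn on polyunsaturated ones. SREBF1 encodes a transcription factor that insulin raises in lipogenic tissues and that many of these genes are known to respond to, and in ruminants fat tissue, more than liver, is known as the site of this synthesis.

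RNA was sequenced from preadipocytes that the study took from a back muscle (longissimus dorsi) of newborn Qinchuan cattle, before induction of fat cell formation (0 d) and 3, 6 and 9 d later, with 3 libraries a day and 12 in all. The 0 d cells were not induced, and the others had received dexamethasone, 0.5 mM IBMX (a phosphodiesterase inhibitor) and insulin for 48 h, then insulin alone until harvest. The sample labels and the study's methods differ in the doses of dexamethasone and insulin and in whether poly(A) RNA was selected or rRNA depleted. The methods call the replicates biological without naming animals or cultures, and the study describes the cells of all days as a single batch, so p-values measure the spread between these libraries. Time in culture and time after induction cannot be told apart, since no uninduced cells were kept to 3, 6 or 9 d.

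FPKM hold no read counts, so the depth behind a single value is not known from the table. The FPKM of all rows summed to between 1221194 and 1371794 in the 12 libraries. In bulk RNA, fewer cells of a type and less RNA per cell cannot be told apart.

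The label of the cells was set beside marker genes. Of 10 adipocyte markers, 8 had a row of their own and were tested with limma, and 5 were called higher and 1 lower on day 3 than on day 0, against 5 higher on day 6 and 5 higher on day 9. Called means an absolute log2 fold change over 1 with an adjusted p under 0.05, here and below. Of all 15402 mRNAs tested, 8.06% were called higher and 15.2% lower on day 3, 3.39% and 7.97% on day 6, and 3.41% and 7.47% on day 9, the shares to set beside the counts of markers. With no limit on the fold, 6 of the 8 were higher and 1 lower on days 3 and 6 at a limma adjusted p under 0.05. On day 9, 6 were higher and 0 lower. Of all mRNAs, 52.2%, 34.8% and 36.8% passed in either direction on days 3, 6 and 9. The summed level of these 8 markers was 10.8 to 11.5 FPKM on day 0, 102 to 113 on day 3, 40.4 to 41.6 on day 6 and 39.9 to 48.5 on day 9. The most abundant of them was LPL on day 0, FABP4 at 3 and 6 d and LEP on day 9. FABP4, a fatty acid carrier, averaged 3.30 FPKM on day 0, 91.1 on day 3, 26.4 on day 6 and 9.07 on day 9. CD36, a fatty acid transporter, averaged 0.307 FPKM on day 0 and 8.07 on day 9. LEP, which encodes leptin, averaged 2.34 FPKM on day 0, 0.0700 on day 3, 8.02 on day 6 and 20.5 on day 9. ADIPOQ, which encodes adiponectin and defines fat cells, did not exceed 1.64 FPKM in any library, and CEBPA did not exceed 0.260. The call of ADIPOQ on day 6, at a log2 fold change of 2.22, was lost without 0 d replicate 1 (2.14), 0 d replicate 2 (2.26), 0 d replicate 3 (2.26) or 6 d replicate 1 (1.42), and in a fit of the 6 libraries compared (2.22). That on day 9, at 2.34, was lost without 0 d replicate 1 (2.26), 9 d replicate 1 (2.07) or 9 d replicate 2 (2.06). With a pseudocount of 1 ADIPOQ was not called on any day (0.74, 0.63 and 0.62) and CIDEC was no longer called at 6 and 9 d, which left FABP4, LEP and CD36 as the markers called higher on these days. With a pseudocount of 0.01 the call of LEP on day 6 was lost, though its log2 fold change was 1.73 in place of 1.69. The rows of PPARG and PLIN1 are each joined with neighbouring genes and give no value of their own.

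Markers of other cells were present in these cultures. The 8 fibroblast and preadipocyte markers summed to between 116280 and 225420 FPKM per library, with COL3A1 the most abundant on every day. DLK1, also on this list, did not exceed 0.130 FPKM in any library and had too low a mean to be tested. DCN, a matrix proteoglycan, averaged 9949 FPKM on day 0 and 42430.0 on day 3, and 4 of the 7 tested markers were called higher and 2 lower on day 3, 3 higher and 1 lower on day 6 and 2 higher on day 9. PDGFRA averaged 159.6 FPKM on day 0 and 930 on day 3, and LUM 216 and 636. On days 6 and 9 PDGFRA averaged 162 and 203 FPKM, and LUM 694 and 683. COL1A1 and PDGFRB were the 2 called lower on day 3, with means of 3018 and 941 FPKM for COL1A1 and of 586 and 226 for PDGFRB on days 0 and 3. COL1A1 averaged 3080.0 FPKM on day 6, and PDGFRB, lower on day 6 too, averaged 597 on day 9. The 8 skeletal muscle markers with a row summed to 826 to 941 FPKM on day 0, 271 to 300 on day 3, 379 to 421 on day 6 and 293 to 328 on day 9, with DES the most abundant. Of these 8, 6 were called lower on day 3, 6 on day 6 and 7 on day 9, beside 15.2%, 7.97% and 7.47% of all mRNAs. MYOD1, which defines myoblasts, averaged 268 FPKM on day 0, 109 on day 3, 47.7 on day 6 and 54.6 on day 9. CKM averaged 133 FPKM on day 0, 3.28 on day 3, 13.4 on day 6 and 26.7 on day 9. MYH3 averaged 17.6, 5.65, 4.40 and 4.57 FPKM on these days. PAX7 has no row. The 6 endothelial markers summed to at most 3.71 FPKM, with VWF the most abundant and TEK close to it on day 3 (means of 1.73 and 1.53), and PECAM1 did not exceed 0.0300. Of the 3 tested, CLDN5 alone was called against 0 d, lower on day 6. The 7 immune markers summed to at most 3.71 FPKM, with CD14 or CSF1R the most abundant, and PTPRC was listed at 0 in every library. CD14 was called higher at 3 and 9 d, and CSF1R on day 3, a call that was lost without 0 d replicate 3 (0.9998). With a pseudocount of 1 the calls of CLDN5, of CSF1R and of CD14 on day 9 were lost. The call of the muscle marker TNNT3 on day 6 was lost with a pseudocount of 1 (-0.75), rescaled by the median ratio (-0.95) and without 0 d replicate 2 (-0.89) or 6 d replicate 3 (-0.92). That on day 9 was lost with a pseudocount of 1 (-0.72), rescaled (-0.86) and without 0 d replicate 2 (-0.82) or 9 d replicate 2 (-0.85). The part that changes in muscle and fibroblast markers have in the results below was not tested.

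After 3 d of differentiation SCD, ACACB and FADS2 stood far above their uninduced level, while FASN, ACACA and SREBF1 lay between 1.70 and 1.94 times theirs. By 6 d SREBF1 lay below its uninduced level, ACACA overlapped it and FASN had come closer to it, while SCD and ACACB were still high. By 9 d ACACB had dropped most of the way back, SCD partly, and FADS2 had not.

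**Figure D1:**
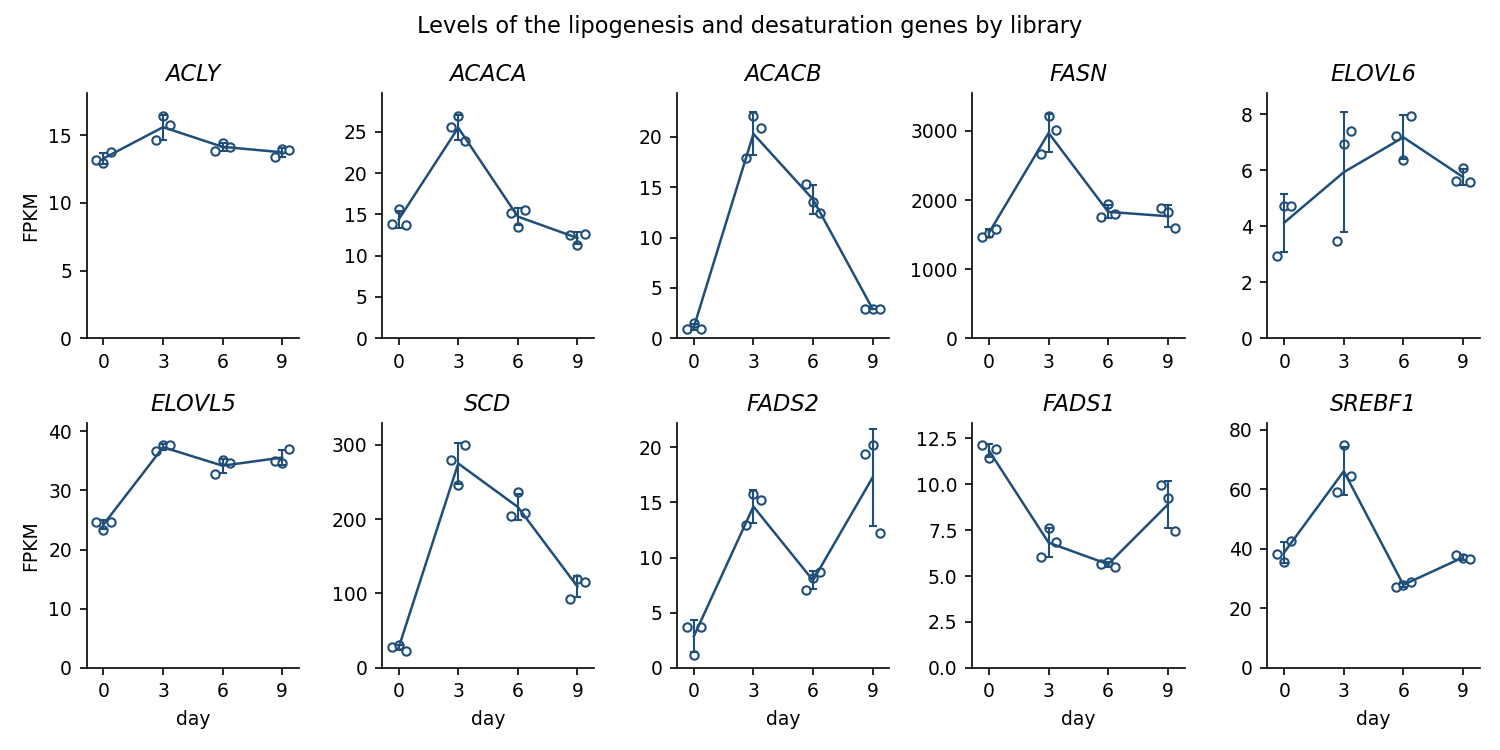
FPKM of each gene (y axis, each panel with its own scale from 0) by day of differentiation (x axis); circles are the 3 libraries of a day, the line joins the means and bars are 1 SD. Of the 10 genes, 7 have their highest mean on day 3; the exceptions are ELOVL6 (6 d), FADS2 (9 d) and FADS1 (0 d).

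On day 3 against 0 d limma called 3 of the 10 genes, SCD, ACACB and FADS2, all higher. Over all 15402 mRNAs tested, 8.06% were called higher and 15.2% lower. At an adjusted p under 0.05 with no limit on the fold, 8 of the 10 were higher and 1 lower, where 52.2% of all mRNAs passed in either direction. The median log2 fold change was 0.79 over the 10 genes and -0.06 over all mRNAs.

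On day 6 against 0 d the same 3 genes were called higher and FADS1 lower, beside 3.39% of all mRNAs higher and 7.97% lower. With no limit on the fold, 6 were higher and 2 lower, beside 34.8% of all mRNAs. On day 9 against 0 d SCD, ACACB and FADS2 were called higher, beside 3.41% of all mRNAs higher and 7.47% lower. With no limit on the fold, 4 of the genes were higher and 1 lower on day 9, beside 36.8% of all mRNAs. The median log2 fold change of the 10 genes was 0.38 on day 6 and 0.35 on day 9, where that of all mRNAs was -0.15 and -0.19. All 3 comparisons use the same 0 d libraries, so they are not independent of each other. Rescaling the libraries by their median ratio moved the median of all mRNAs by 0.15 for day 6, 0.19 for day 9 and 0.11 between 3 and 9 d on the log2 scale, and SCD, ACACB and FADS2 were still called higher against 0 d.

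Between induced days the calls among the 10 genes were all decreases. From 3 to 6 d SREBF1 was called lower, beside 9.85% of all mRNAs higher and 9.23% lower, and with no limit on the fold 4 genes were lower, beside 49.5% of all mRNAs. From 6 to 9 d ACACB was called lower, beside 2.55% of all mRNAs higher and 1.89% lower. With no limit on the fold, 2 genes were higher and 3 lower from 6 to 9 d, beside 20.7% of all mRNAs. From 3 to 9 d SCD, ACACA and ACACB were called lower, beside 10.2% of all mRNAs higher and 10.3% lower. With no limit on the fold, 1 gene was higher and 6 lower from 3 to 9 d, beside 51.4% of all mRNAs. The median log2 fold change of the 10 genes was -0.45 from 3 to 6 d, -0.05 from 6 to 9 d and -0.47 from 3 to 9 d, where that of all mRNAs was -0.09, -0.04 and -0.13. The balance of all calls turned with the scaling. From 3 to 6 d 1517 mRNAs were called higher and 1422 lower, but 1359 and 1532 with an equal sum. From 3 to 9 d these were 1574 and 1583, against 1802 and 1285 when rescaled by the median ratio and 1356 and 1849 with an equal sum.

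**Figure D2:**
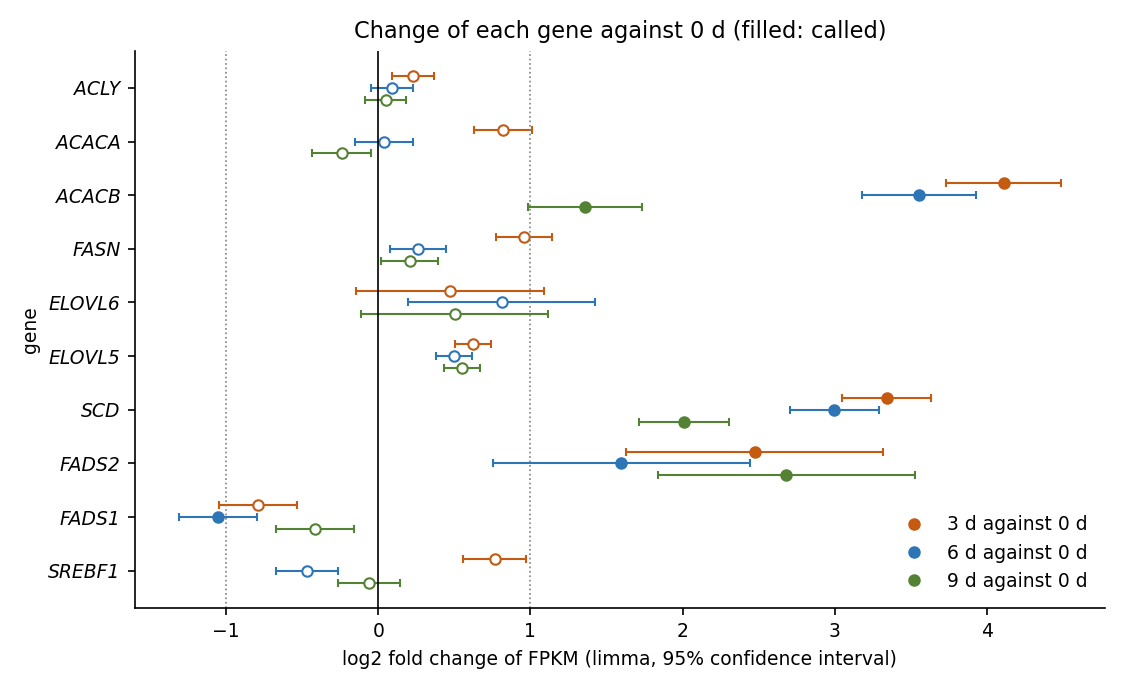
log2 fold change of FPKM against 0 d (x axis) of each gene (y axis) at 3, 6 and 9 d; bars are 95% confidence intervals from limma, filled circles are called genes and dotted lines mark log2 fold changes of -1 and 1. SCD, ACACB and FADS2 are the genes filled on the right at all 3 days, and FADS1 on day 6 is the filled circle on the left.

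The acetyl-CoA carboxylases catalyse the committed step, ACACA in the cytosol for synthesis and ACACB at mitochondria, where its malonyl-CoA restrains the entry of fatty acids for oxidation. ACACB was at 0.880, 1.48 and 0.950 FPKM in the 0 d libraries and at 17.9, 22.1 and 20.8 on day 3. It was at 15.3, 13.6 and 12.5 FPKM on day 6 and at 2.91, 2.92 and 2.92 on day 9. The 4 days did not overlap in any library, in the order 3, 6, 9 and 0 d. ACACB rose by a log2 fold change of 4.11 (SE 0.168, 3 of 3 libraries above all 0 d libraries, limma adjusted p = 1.98e-08) on day 3. The 3 d mean was 18.4 times the 0 d mean. On day 6 the log2 fold change was 3.56 (limma adjusted p = 1.81e-07), and on day 9 1.36 (limma adjusted p = 0.000163). Over 20 alternatives, all called, it ran from 3.35 to 4.32 on day 3 and from 2.82 to 3.77 on day 6. From 6 to 9 d ACACB fell by 2.198 log2 units (SE 0.168, limma adjusted p = 1.59e-05). The 9 d call against 0 d was lost with a pseudocount of 1, at 0.91.

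ACACA was at 13.8, 15.6 and 13.7 FPKM on day 0, 25.6, 26.9 and 23.9 on day 3, 15.2, 13.5 and 15.5 on day 6 and 12.5, 11.3 and 12.6 on day 9. Its 3 d libraries lay above all others, its 0 and 6 d libraries overlapped, and its 9 d libraries lay below all others. The log2 fold change on day 9 against 0 d was -0.24 (limma adjusted p = 0.05004). Over 20 alternatives that value ran from -0.29 to -0.04, with a limma adjusted p from 0.0207 to 0.745. The log2 fold change on day 3 against 0 d was 0.82 (SE 0.0855, limma adjusted p = 1.96e-05), under the fold needed for a call. From 3 to 9 d ACACA fell by 1.06 log2 units (SE 0.0855, limma adjusted p = 3.51e-06), a call that was lost at -0.95 when libraries were rescaled by their median ratio. On day 0 ACACA exceeded ACACB in level, with a ratio of ACACB to ACACA of 0.0760 ± 0.0167 (SD, n = 3). The ratio was 0.798 ± 0.0883 on day 3, 0.940 ± 0.118 on day 6 and 0.241 ± 0.0159 on day 9, so that both carboxylases were at like levels per length only at 3 and 6 d.

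FASN, the synthase, was by far the most abundant of the 10 genes, ranked 67 of all rows by its mean of 2023 FPKM. It was at 1468, 1527 and 1587 FPKM on day 0, 2672, 3219 and 3020.0 on day 3, 1757, 1936 and 1794 on day 6 and 1881, 1828 and 1588 on day 9. Its 3 d libraries lay above all others, its 0 d libraries below all others, and its 6 and 9 d libraries overlapped. On day 3 the mean was 1.94 times that of 0 d, a log2 fold change of 0.96 (SE 0.0829, 95% confidence interval 0.77 to 1.14, limma adjusted p = 5.02e-06). That lies just under the fold needed for a call. It passed when libraries were rescaled by their median ratio (1.04), when they were scaled to an equal sum (1.03) and without 3 d replicate 1 (1.03). The log2 fold change of FASN was 0.26 on day 6 (limma adjusted p = 0.0348) and 0.21 on day 9 (limma adjusted p = 0.0794). Rescaled by the median ratio these were 0.43 and 0.41. Over 20 alternatives the limma adjusted p of FASN ran from 0.00441 to 0.117 for day 6 and from 0.00588 to 0.227 for day 9, so neither day lies clearly on one side of 0.05.

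FASN made up 91.7 ± 0.273% (SD, n = 3) of the summed FPKM of the 10 genes on day 0, 86.4 ± 1.16% on day 3, 84.3 ± 0.0208% on day 6 and 87.9 ± 1.24% on day 9. The 10 genes together made up 0.127 ± 0.00429% of all FPKM on day 0 and 0.275 ± 0.0170% on day 3. They made up 0.166 ± 0.00709% on day 6 and 0.148 ± 0.0126% on day 9. Without FASN, the summed level was 138 ± 1.29 FPKM on day 0, 467 ± 21.0 on day 3, 342 ± 17.7 on day 6 and 243 ± 12.5 on day 9. SCD made up 19.7 ± 2.89% of that sum on day 0 and 63.2 ± 1.98% on day 6.

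ACLY supplies the acetyl-CoA for these steps and moved least of the 10 genes. Its level was between 13.0 and 16.4 FPKM in every library, with means of 13.3 ± 0.401 (SD, n = 3) on day 0, 15.6 ± 0.917 on day 3, 14.1 ± 0.295 on day 6 and 13.7 ± 0.330 on day 9. The 3 d libraries lay above the 0 d ones, with a log2 fold change of 0.23 (SE 0.0611, limma adjusted p = 0.00986). On day 6 the log2 fold change against 0 d was 0.09, and on day 9 it was 0.05, near 0 (-0.001206) with libraries scaled to an equal sum. Rescaled by the median ratio, these values were 0.25 for day 6 and 0.25 for day 9. Over 20 alternatives the limma adjusted p of ACLY ran from 0.00117 to 0.0510 for day 3, from 0.0147 to 0.495 for day 6 and from 0.0167 to 0.990 for day 9.

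The elongases ELOVL5 and ELOVL6 were not called in any comparison. ELOVL5, which lengthens polyunsaturated fatty acids, was at 24.6, 23.4 and 24.7 FPKM on day 0 and between 32.8 and 37.6 in the other 9 libraries. All induced libraries thus lay above the uninduced ones, with log2 fold changes of 0.62 on day 3 (SE 0.0529, limma adjusted p = 4.43e-06), 0.49 on day 6 (limma adjusted p = 5.42e-05) and 0.55 on day 9 (limma adjusted p = 2.93e-05). ELOVL6, which lengthens palmitate to stearate, was at 2.93, 4.74 and 4.72 FPKM on day 0, 3.47, 6.94 and 7.39 on day 3, 7.21, 6.38 and 7.95 on day 6 and 5.63, 6.07 and 5.58 on day 9. Replicate 1 was the low library of ELOVL6 at both 0 and 3 d. The log2 fold change of ELOVL6 was 0.47 on day 3 (SE 0.275, limma adjusted p = 0.182), and 0.81 (limma adjusted p = 0.00768, the lowest of 20 alternatives, the highest 0.505) without 3 d replicate 1. On day 6 it was 0.81 (limma adjusted p = 0.0444). Without 0 d replicate 1 that value was 0.59, with an adjusted p of 0.153, the highest of 20 alternative settings.

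SCD, which makes oleate and palmitoleate, had the highest mean over the 12 libraries of the genes other than FASN. It was at 28.3, 30.1 and 22.9 FPKM on day 0, 280, 246 and 299 on day 3, 204, 237 and 208 on day 6 and 92.7, 119 and 116 on day 9. The 4 days did not overlap in any library, in the order 3, 6, 9 and 0 d that ACACB also had. SCD rose by a log2 fold change of 3.34 (SE 0.132, 3 of 3 libraries above all 0 d libraries, limma adjusted p = 1.51e-08) on day 3, 10.1 times the 0 d mean. On day 6 the log2 fold change was 3.00 (limma adjusted p = 1.19e-07), and on day 9 2.01 (limma adjusted p = 2.11e-06). From 3 to 9 d SCD fell by 1.33 log2 units (limma adjusted p = 1.64e-05). From 6 to 9 d the log2 fold change was -0.99 (limma adjusted p = 0.000547), just short of a call. It passed at -1.04 with libraries scaled to an equal sum, at -1.03 without 6 d replicate 1, at -1.02 without 6 d replicate 3, at -1.06 without 9 d replicate 2 and at -1.04 without 9 d replicate 3.

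SCD5, a second stearoyl-CoA desaturase that is not among the 10 genes, went the other way. It was at 7.61, 7.57 and 7.95 FPKM on day 0, 2.44, 2.72 and 2.86 on day 3, 2.63, 3.23 and 3.17 on day 6 and 1.67, 1.81 and 1.96 on day 9. Every induced library lay below every uninduced one. SCD5 fell by 1.50 on day 3 (limma adjusted p = 8.8e-07), by 1.33 on day 6 (limma adjusted p = 5.3e-06) and by 2.03 on day 9 (limma adjusted p = 4.0e-07) log2 units. The ratio of SCD to SCD5 was 3.53 ± 0.574 (SD, n = 3) on day 0, 103 ± 12.3 on day 3, 72.2 ± 6.02 on day 6 and 60.2 ± 5.22 on day 9.

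The polyunsaturated branch split as well. FADS2, the delta-6 desaturase at its first step, was at 3.66, 1.18 and 3.73 FPKM on day 0, 13.0, 15.7 and 15.2 on day 3, 7.03, 8.10 and 8.65 on day 6 and 19.4, 20.2 and 12.2 on day 9. All induced libraries lay above all uninduced ones, the 6 d libraries lay below those of 3 and 9 d, and 3 and 9 d overlapped. FADS2 rose by a log2 fold change of 2.47 on day 3 (SE 0.378, 3 of 3 libraries above, limma adjusted p = 0.000307), of 1.60 on day 6 (limma adjusted p = 0.00813) and of 2.68 on day 9 (limma adjusted p = 0.000374). The low 0 d replicate 2 adds to each. Without it the log2 fold change was 1.95 on day 3, 1.08 on day 6 and 2.16 on day 9, and each was still called. From 6 to 9 d the log2 fold change of FADS2 was 1.08 (limma adjusted p = 0.0722), which was called without 0 d replicate 2 (adjusted p = 0.00341), in a fit of the 6 libraries compared (adjusted p = 0.0232) and with a pseudocount of 1 (adjusted p = 0.0336). Over the 20 settings that adjusted p ran from 0.00341 to 0.194.

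FADS1, the delta-5 desaturase that follows, was at 12.1, 11.4 and 11.9 FPKM on day 0, 6.02, 7.61 and 6.83 on day 3, 5.64, 5.79 and 5.50 on day 6 and 9.97, 9.23 and 7.48 on day 9. Every induced library lay below every uninduced one. FADS1 fell by 1.05 log2 units on day 6 (SE 0.114, 3 of 3 libraries below, limma adjusted p = 5.83e-05). This call was lost at -0.95 with a pseudocount of 1 and at -0.89 with libraries rescaled by their median ratio. The log2 fold change was -0.79 on day 3 (limma adjusted p = 0.000206) and -0.42 on day 9 (limma adjusted p = 0.0164). The day 9 value was -0.22 when rescaled by the median ratio, and its limma adjusted p ran from 0.00717 to 0.209 over 20 alternatives. The ratio of FADS2 to FADS1 was 0.239 ± 0.118 (SD, n = 3) on day 0, 2.15 ± 0.0772 on day 3, 1.41 ± 0.163 on day 6 and 1.92 ± 0.276 on day 9, so that FADS1 was the more abundant per length in uninduced cells and FADS2 on each later day.

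FADS1, FADS2 and FADS3 lie next to each other in that order among protein-coding genes of the RefSeq annotation of ARS-UCD2.0. FADS3, a desaturase of sphingoid bases, was at 45.7, 44.2 and 48.6 FPKM on day 0, 5.31, 6.15 and 5.54 on day 3, 33.7, 37.0 and 35.8 on day 6 and 35.3, 33.7 and 34.5 on day 9. Its 3 d libraries lay far below all others. FADS3 fell by 3.01 log2 units on day 3 (limma adjusted p = 4.3e-10) and rose by 2.63 from 3 to 6 d (limma adjusted p = 1.9e-09). The neighbours thus had 3 different courses: FADS2 was lowest on day 0, FADS1 on day 6 and FADS3 on day 3.

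**Figure D3:**
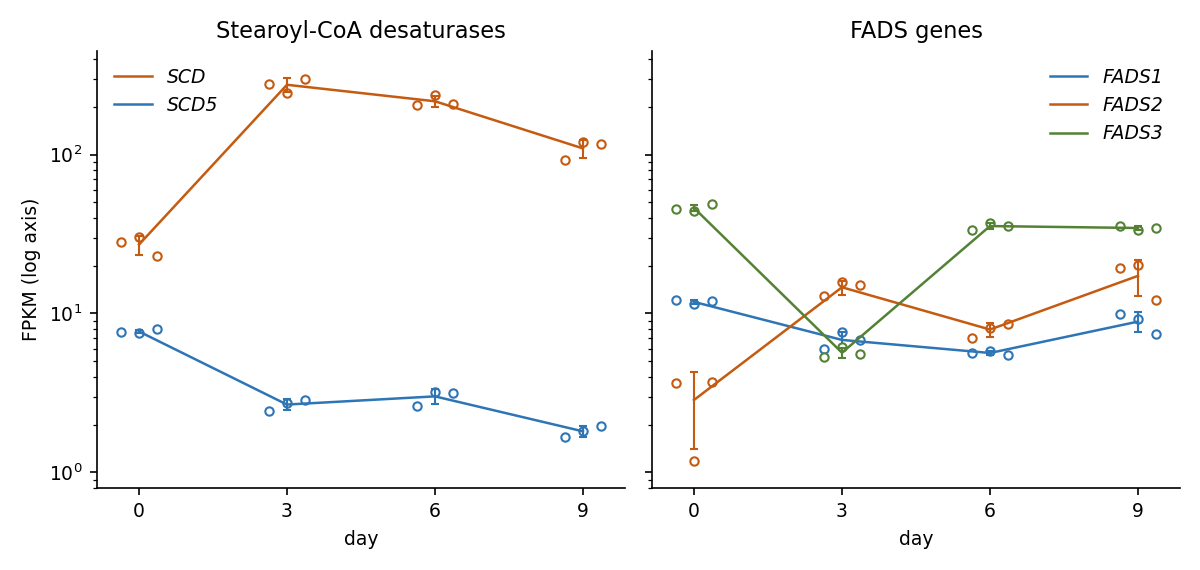
FPKM (y axis, log scale) by day (x axis) of the stearoyl-CoA desaturases SCD and SCD5 (left) and of the adjacent genes FADS1, FADS2 and FADS3 (right); circles are libraries, lines join the means of 3 libraries and bars are 1 SD. SCD lies above its 0 d libraries on every later day where SCD5 lies below them, and FADS3 drops to between 5.31 and 6.15 FPKM on day 3 only.

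SREBF1, the regulator, was at 38.3, 35.5 and 42.5 FPKM on day 0, 59.1, 74.8 and 64.3 on day 3, 27.1, 27.9 and 28.7 on day 6 and 37.9, 36.9 and 36.5 on day 9. Its 3 d libraries lay above and its 6 d libraries below all others, and 0 and 9 d overlapped. SREBF1 fell by 1.23 log2 units from 3 to 6 d (SE 0.0916, 3 of 3 libraries below, limma adjusted p = 2.17e-06). Against 0 d the log2 fold change was 0.76 on day 3 (limma adjusted p = 5.52e-05) and -0.47 on day 6 (limma adjusted p = 0.00274). On day 9 it was -0.06 (limma adjusted p = 0.656), with the other sign after rescaling by the median ratio (0.14) and without 0 d replicate 3 (0.01).

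SREBF1 and SCD did not keep in step. The ratio of SCD to SREBF1 was 0.709 ± 0.158 (SD, n = 3) on day 0, 4.22 ± 0.815 on day 3, 7.76 ± 0.649 on day 6 and 2.95 ± 0.440 on day 9. The ratio of FASN to SREBF1 was 39.6 ± 3.08 on day 0, 45.1 ± 1.94 on day 3, 65.6 ± 3.49 on day 6 and 47.6 ± 3.52 on day 9. Both ratios were highest on day 6, the day on which SREBF1, by which both are divided, was lowest. From 3 to 6 d the means of FASN and SCD fell as well, from 2970.5 to 1829 and from 275 to 216 FPKM.

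**Figure D4:**
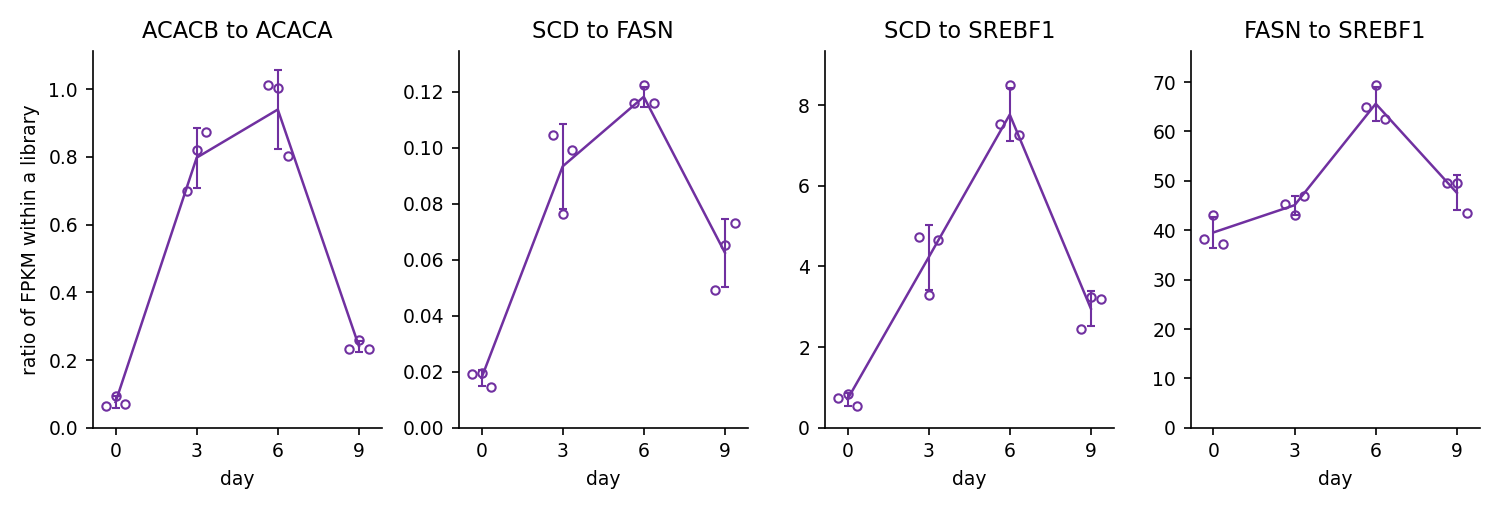
Ratios of FPKM within a library (y axis, from 0) by day (x axis) for ACACB to ACACA, SCD to FASN, SCD to SREBF1 and FASN to SREBF1; circles are libraries, lines join the means of 3 libraries and bars are 1 SD. Each ratio has its highest mean on day 6 and its lowest on day 0.

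Over the 12 libraries, Pearson r of log2(FPKM + 0.1) was above 0 in 36 of the 45 pairs of the 10 genes, with a median of 0.551. These are descriptions over libraries that share 4 days, and no p is given. The highest r was 0.951, between SCD and ACACB, and FASN and ACLY had 0.919. The lowest r was -0.902, between SCD and FADS1. SREBF1 had an r of 0.793 with ACACA and 0.791 with FASN, and of 0.211 with SCD and 0.279 with ACACB. FASN had an r of 0.784 with ACACB and of 0.725 with SCD, close to its r with SREBF1, and ACACA had 0.665 with ACACB.

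Among the other 11330 rows with a mean of at least 1 FPKM, LGALS3BP (r = 0.986), the joined row of PGP, MIR2382 and MIR1842 (r = 0.983) and NFKBIA (r = 0.975) were most like FASN over the 12 libraries. P4HA3 (r = 0.987), TRARG1 (r = 0.986) and ADAM9 (r = 0.985) were most like SCD. TRARG1, which encodes a partner of the insulin-regulated glucose transporter, was listed at 0 on day 0 and averaged 19.3 FPKM on day 3. ZCCHC24 (r = 0.983), AMIGO1 (r = 0.983) and TIGD5 (r = 0.981) were most like SREBF1.

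The other genes of the pathway were taken from 4 lists with 62 genes, of which 55 were tested, 5 were held only in rows joined with other genes and 2 had a mean under 0.1 FPKM. On day 3 3 of the 55 were called higher and 14 lower, on day 6 1 higher and 6 lower and on day 9 1 higher and 7 lower, beside the shares of all mRNAs given above. From 3 to 6 d 5 were called higher and 3 lower, from 6 to 9 d 1 higher, and from 3 to 9 d 4 higher and 3 lower. This balance also depended on the scaling, with 5 higher and 1 lower from 3 to 6 d when rescaled by the median ratio. From 3 to 9 d it was 6 higher and 3 lower when rescaled, and 3 higher and 4 lower with an equal sum. On day 9 against 0 d it was 1 higher and 3 lower when rescaled. With a pseudocount of 1, 10, 3 and 3 were called lower against 0 d on days 3, 6 and 9, and 0 higher. The median log2 fold change of the 55 genes against 0 d was -0.34 on day 3, -0.20 on day 6 and -0.37 on day 9.

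**Figure D5:**
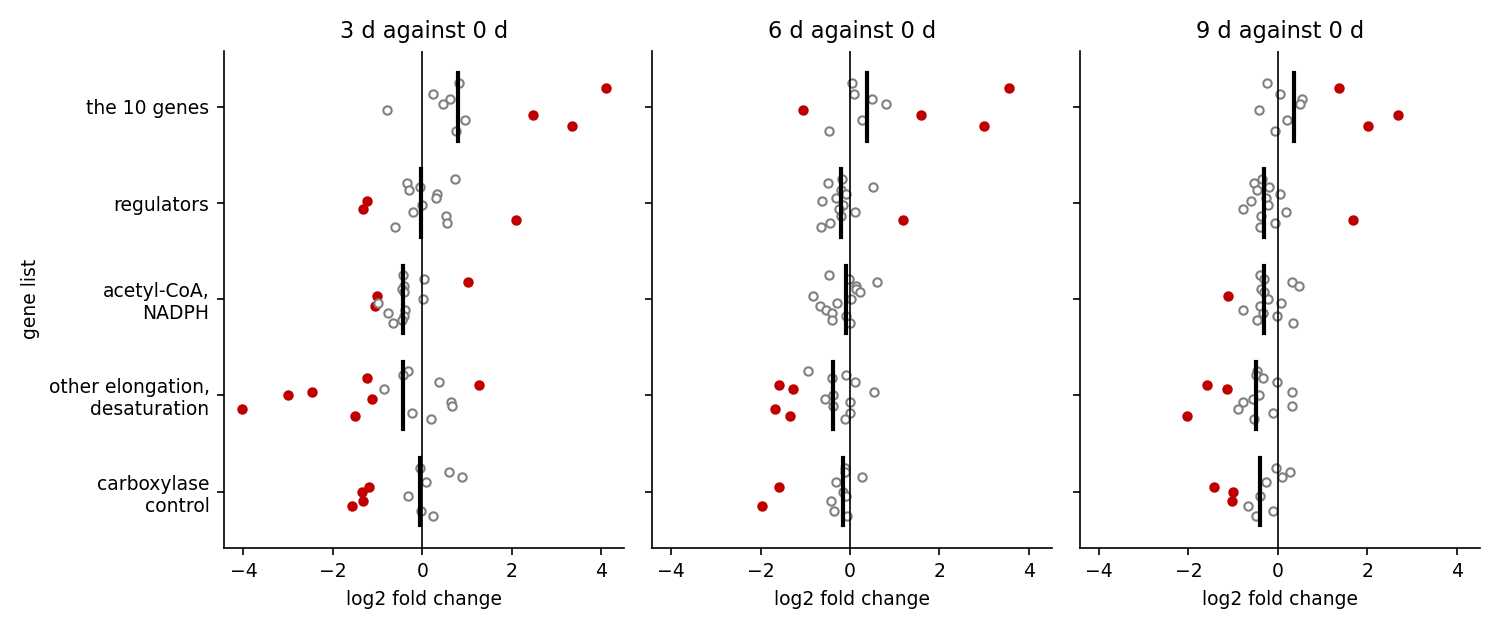
log2 fold change against 0 d (x axis) of the 10 genes and of the tested genes of the 4 pathway lists (y axis) at 3, 6 and 9 d; each circle is a gene, red ones are called and black bars are the medians. The median of the 10 genes is above 0 on each day (0.79, 0.38 and 0.35), and the called genes of the 4 lists are mostly on the left.

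Among the regulators, which include the SREBP, LXR and ChREBP systems, 1 of 14 tested genes was called higher and 2 lower on day 3, and 1 higher on day 6 and on day 9. Of all mRNAs, 8.06% were called higher and 15.2% lower on day 3, 3.39% higher on day 6 and 3.41% higher on day 9. THRSP, a lipogenic protein of fat and liver, was the gene called higher each time, by log2 fold changes of 2.09, 1.18 and 1.68, yet it did not exceed 0.510 FPKM in any library. These values depend on the pseudocount and ran over 19 alternatives from 0.46 to 4.43 on day 3, from 0.20 to 3.16 on day 6 and from 0.33 to 3.90 on day 9. Its call on day 6 was lost without 0 d replicate 1 (1.09), 0 d replicate 2 (1.09), 6 d replicate 2 (0.93) or 6 d replicate 3 (1.13). MLXIPL, which encodes ChREBP, averaged 0.647 FPKM on day 0 and 0.200 on day 3, a log2 fold change of -1.32 (limma adjusted p = 6.3e-05). MID1IP1, which promotes the assembly of ACACA into filaments, fell by 1.25 log2 units on day 3 (limma adjusted p = 0.0026). NR1H3, the LXR alpha receptor, averaged 6.73 FPKM on day 0 and 9.76 on day 3, a log2 fold change of 0.53. NR1H3 averaged 5.86 FPKM on day 6 and 5.17 on day 9, with a log2 fold change of -0.37 on day 9 (limma adjusted p = 0.0147). INSIG1, which holds SREBP in the endoplasmic reticulum, averaged 6.69 FPKM on day 0, 6.47 on day 3, 9.55 on day 6 and 5.89 on day 9. It had a log2 fold change against 0 d of 0.51 on day 6. INSIG2 averaged between 12.1 and 16.9 FPKM on the 4 days and was not called. SREBF2 was held only in a row joined with a second locus, at 16.2 to 28.5 FPKM, and SCAP in a row joined with ELP6, at 1031 to 1797 FPKM.

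Of 15 genes that supply acetyl-CoA and NADPH, 1 was called higher and 2 lower on day 3, none was called on day 6 and 1 was called lower on day 9 with limma. Beside these counts, 8.06% of all mRNAs were called higher and 15.2% lower on day 3. The shares were 3.39% and 7.97% on day 6, and 3.41% and 7.47% on day 9. On day 6, 2 of the 15 were higher and 7 lower at an unadjusted p under 0.05. At a limma adjusted p under 0.05 with no limit on the fold, 1 was higher and 12 lower on day 3, 7 were lower on day 6, and 2 were higher and 10 lower on day 9, beside 52.2%, 34.8% and 36.8% of all mRNAs in either direction. PC, which refills oxaloacetate, averaged 160.1 FPKM on day 0 and 77.0 on day 3, and IDH1, a cytosolic source of NADPH, 62.3 and 30.8. IDH1 fell by 1.01 log2 units on day 3 (limma adjusted p = 3.3e-06) and by 1.12 on day 9 (limma adjusted p = 5.0e-06). The 3 d call of IDH1 was lost without 0 d replicate 1 (-0.98), 0 d replicate 3 (-0.98) or 3 d replicate 1 (-0.997), and that of PC without 3 d replicate 1 (-0.998). Rescaling by the median ratio ended the 3 d calls of IDH1 (-0.93) and PC (-0.97), as did scaling to an equal sum (-0.94 and -0.99), and a pseudocount of 1 ended that of IDH1 (-0.99). The 9 d call of IDH1, the only call of this list on that day, was lost at -0.92 when rescaled by the median ratio. ME1, malic enzyme, averaged 105 FPKM on day 0, 52.4 on day 3, 85.7 on day 6 and 109.7 on day 9, and rose by 1.07 from 3 to 9 d (limma adjusted p = 1.1e-07), a call that was lost with libraries scaled to an equal sum. SLC25A1, the citrate carrier, averaged between 6.70 and 8.85 FPKM on the 4 days. ACSS2, which makes acetyl-CoA from acetate, the main carbon source of ruminant fat, averaged 18.2 FPKM on day 0, 13.8 on day 3, 20.4 on day 6 and 25.2 on day 9, with a log2 fold change of 0.46 on day 9 (limma adjusted p = 0.032). ACSS1, its mitochondrial relative, was called higher on day 3 at a mean of 0.367 FPKM. That call was lost without 0 d replicate 3 (0.85) or 3 d replicate 2 (0.94), and with libraries scaled to an equal sum (0.98).

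Of 15 tested genes of other elongation and desaturation steps, 1 was called higher and 6 lower on day 3, 4 lower on day 6 and 3 lower on day 9. Of all mRNAs, 8.06% were called higher and 15.2% lower on day 3, 7.97% lower on day 6 and 7.47% lower on day 9. The 9 d call of ELOVL4, at -1.14, was lost when rescaled by the median ratio (-0.94). HACD4, a dehydratase of the elongation cycle, averaged 3.65 FPKM on day 0, 0.130 on day 3, 1.08 on day 6 and 1.94 on day 9, and fell by 4.03 log2 units on day 3 (limma adjusted p = 2.0e-09). The size of that fall depends on the pseudocount, from -4.71 to -2.04 over 20 alternatives, all called. SCD5 and FADS3, described above, were among the called genes. So was ELOVL7, which averaged 114 FPKM on day 0, 21.0 on day 3, 166 on day 6 and 142 on day 9. ELOVL7 fell by 2.46 log2 units on day 3 and rose by 3.00 from 3 to 6 d, both called in all 20 alternatives. ELOVL3 averaged 0.200 FPKM on day 0 and 0.660 on day 3, and was listed at 0 in every library of 6 and 9 d. The call of ELOVL3 on day 3 was lost without 3 d replicate 3 (0.96).

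Of 11 tested genes that control acetyl-CoA carboxylase, 4 were called lower on day 3, 2 on day 6 and 3 on day 9. Of all mRNAs, 15.2%, 7.97% and 7.47% were called lower on these days. The called genes of this list were all subunits of AMP-activated protein kinase, which phosphorylates and inhibits ACACA and ACACB. PRKAG2 averaged 16.2 FPKM on day 0, 6.38 on day 3, 12.02 on day 6 and 7.95 on day 9, and fell by 1.33 log2 units on day 3 (limma adjusted p = 4.6e-08). PRKAB2 averaged 21.5 FPKM on day 0, 8.32 on day 3, 19.2 on day 6 and 10.7 on day 9, and fell by 1.35 on day 3 (limma adjusted p = 0.00012). On day 9 both lay near the limit of a call, which PRKAG2 lost without 0 d replicate 3 (-0.998) or 9 d replicate 1 (-0.98). PRKAB2 lost it without 0 d replicate 1 (-0.91), 0 d replicate 3 (-0.96), 9 d replicate 1 (-0.91) or 9 d replicate 3 (-0.93). Both were also lost when rescaled by the median ratio (PRKAG2 -0.82, PRKAB2 -0.80) and with a pseudocount of 1 (PRKAG2 -0.94, PRKAB2 -0.95). PRKAA2, a catalytic subunit, averaged 0.573 FPKM on day 0 and 0.193 on day 3, and PRKAG3 0.503 and 0.103. The more abundant catalytic subunit PRKAA1 averaged 10.7 FPKM on day 0 and 11.3 on day 3 and was not called, nor was PRKAG1, with 14.8 and 11.8. Calls of PRKAA2, PRKAG3, MLXIPL, THRSP, ACSS1 and ELOVL3, which lie under 1 FPKM on each day, were lost with a pseudocount of 1.

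The small RNA table holds products of the miR-33 family, whose hairpins are known to lie in introns of SREBF1 (miR-33b) and SREBF2 (miR-33a). The sequences below are those of the deposited table, printed because they come from the loci of the regulator genes; capitals mark the seed, bases 2 to 8.
hsa-miR-33b-3p_R-1: cAGTGCCTcggcagtgcagcc
chi-miR-33a-3p: cAATGTTTccacagtgcatca
The miR-33b hairpin is placed at chr19:34647548-34647641 on the + strand, starting 3556 bases after the end of the circRNA assigned to SREBF1 on the same strand, and the miR-33a hairpin at chr5:112884573-112884649 on the + strand. The labels name mm8 as the build, while the sequence names in the table are those of cattle and the study's methods name a bovine assembly. Chromosome numbers were inferred from the host genes of circRNAs on the same sequences. A further entry of the miR-33a hairpin, named p5 in the table, covers bases 28 to 46 of 77 and ends where the 3p sequence begins, so no seed is given for it. No other entry named miR-33a or miR-33b was listed, so both sequences printed above are of the 3p arm.

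miR-33b-3p had 16, 24 and 0 raw reads in the 0 d libraries, 23, 37 and 26 on day 3, 16, 50 and 38 on day 6 and 33, 18 and 20 on day 9. In the authors' normalised signal this was 23.9, 29.9 and 0 on day 0, 26.01, 30.3 and 24.0 on day 3, 13.2, 27.3 and 23.5 on day 6 and 29.9, 19.9 and 17.7 on day 9. The days overlapped in signal, and SREBF1 mRNA and miR-33b-3p were not tested against each other. The miR-33a p5 sequence had 71 raw reads over 7 of the 12 libraries and the 3p sequence 18 over 3.

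Back-spliced reads, which mark circular RNAs, were few for these genes. How many circRNAs or reads other genes have on average was not computed. Of 14070 circRNAs with 95674 reads, 14 were assigned to the 10 genes, with 18 reads in all and at most 2 for any 1 of them. ACACA was host to 8 with 9 reads, ACACB to 2 with 3, ACLY to 2 with 3, ELOVL5 to 1 with 2 and SREBF1 to 1 with 1. FASN, SCD, ELOVL6, FADS1 and FADS2 had none listed. By day the 18 reads were 3 on day 0, 7 on day 3, 2 on day 6 and 6 on day 9, too few to compare days.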

How the data were processed

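RNA of 12 libraries, 3 per day, was compared between 4 days. The deposited FPKM were computed by the authors, whose notes name HISAT2 2.0, Bowtie 0.12.2 and StringTie 1.3.0. The deposited circRNA counts are back-spliced reads per circRNA that the authors counted. The raw small RNA reads are estimated counts as deposited, with reads shared between entries split by the authors. Their normalised signal is the raw value times 1 factor per library, by the authors. Tests used limma 3.58.1 in R 4.3.3 on log2(FPKM + 0.1) of rows with a mean FPKM of at least 0.1, with 6 comparisons and Benjamini-Hochberg adjusted p. Tables and figures used Python 3.11.15, pandas 2.3.3, NumPy 2.4.6 and Matplotlib 3.10.9. Named are the 10 genes, genes of the lists picked by name beforehand, the 2 called genes of each list with the largest change against 0 d, and the 3 rows most like FASN, SCD and SREBF1. Other markers and ELOVL7 are named as examples. Genes and lists were chosen with earlier results of these data known. Alternatives were other pseudocounts, filters and scalings, a replicate block, only the libraries compared and each library left out. The lncRNA table and 12 unassigned columns of the circRNA table were not used here.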

Additional observations from a re-analysis of the deposited data

Results flagged for a closer look

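Reads were present in tables that the comparisons of mRNA did not use, above the 3 that a count of 0 allows. They were 9 circRNA reads of ACACA, 301 raw reads of hsa-miR-33b-3p_R-1, 71 of bta-mir-33a-p5 and 18 of chi-miR-33a-3p, each summed over the 12 libraries. No libraries were held that give a background level for such reads, and none of these was tested between days.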

How the results depend on the processing

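The fold changes of the 10 genes and the counts were computed under 20 alternatives, 12 of them without 1 library; list genes with a mean under 1 FPKM have 19, without the filter at 1 FPKM. For the 60 fold changes of the 10 genes, 1175 values kept their direction and side of the threshold, 4 fell short of it, 11 passed it and 10 changed sign, all of these uncalled. With a pseudocount of 1, calls among all mRNAs were 2184, 967 and 888 at 3, 6 and 9 d against 0 d, 1688 from 3 to 6 d, 368 from 6 to 9 d and 1863 from 3 to 9 d, in place of 3585, 1749, 1675, 2939, 683 and 3157. Pathway genes called were then 10, 3, 3, 4 and 0 in the first 5 of these comparisons, in place of 17, 7, 8, 8 and 1 (from 6 to 9 d with the pseudocount of 0.1, 10 were higher and 15 lower at an unadjusted limma p under 0.05). With a mean FPKM of at least 1, 1114 mRNAs were called at 9 d, and pathway genes called were 11, 3 and 5 against 0 d and 0 from 6 to 9 d. Rescaled by the median ratio, 4 pathway genes were called at 9 d. From 6 to 9 d, 2 of the 10 genes were called in place of 1 with a pseudocount of 1, with an equal sum and with only the 6 libraries, and 1 to 2 without a library (2 without 0 d replicate 2, 6 d replicate 1 or 3, or 9 d replicate 2 or 3), as were 1 to 2 pathway genes (2 without 9 d replicate 2). Signs changed for ACLY at 9 d (-0.001206, equal sum), SREBF1 at 9 d (0.14 rescaled, -0.12 to 0.00868 without a library), ACACA at 6 d (-0.004228 to 0.10 without a library), ELOVL6 from 3 to 6 d (-0.001986 to 0.53 without a library), FASN from 6 to 9 d (-0.10 to 0.0211 without a library), ELOVL5 from 3 to 9 d (0.0453 rescaled) and ELOVL6 from 3 to 9 d (-0.0862 equal sum, -0.31 to 0.22 without a library). The cause was not tested. With replicate number as a block, 3, 4, 3, 1, 1 and 3 of the 10 genes were called, as without. FPKM hold no read counts, so the limit that depth sets on genes under 1 FPKM is not known.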
